A study of Mus musculus with 90 samples.

Results

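The genes described here are 10 markers of the alveolar type II cell, named Sftpa1, Sftpb, Sftpc, Sftpd, Abca3, Lamp3, Il33, Muc1, Chil1 and Slc34a2. Each was followed through the array probe set annotated to its symbol alone, and where several qualified, through the one with the highest mean over all 90 arrays. Of the 10 genes, 8 had such a probe set, among 17097 genes measured in this way. Sftpb and Lamp3 were not analysed here. The arrays were made from whole lungs of 90 adult male C57Bl/6 mice that had breathed styrene, a solvent and plastics monomer, or air only. They formed 18 groups of 5 animals, from 3 strains, 3 concentrations and 2 durations. TG mice lacked both copies of Cyp2f2, a cytochrome P450 of the mouse airway that oxidises styrene, and carried the transgenes that the labels spell 2F1, SA13 and 2B6, for which the series calls them humanized for CYP2F1. KO mice lacked both copies of Cyp2f2 without these transgenes, and WT mice kept the gene, so the deletion is common to TG and KO. Each strain had groups at 0 ppm (air), 40 ppm and 120 ppm after 1 week and after 4 weeks of exposure for 6 hours per day on 5 days per week, and lungs were collected the morning after it ended. The sources used here give neither the promoters of the transgenes nor the number of founder lines.

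Alveolar type II cells are the cuboidal cells of the alveolar wall. They make surfactant, a film of phospholipid and surfactant proteins that lowers surface tension, assemble it in lamellar bodies and take it up again for reuse. They also divide and give rise to the flat type I cells when the alveolar lining is renewed. Sftpa1 and Sftpd encode soluble collectins of the airspace and Sftpc a hydrophobic surfactant protein. Abca3 moves phospholipid into the lamellar body. Slc34a2 is the sodium-phosphate cotransporter of the apical membrane, and Muc1 a mucin anchored in that membrane. Chil1 is a secreted chitinase-like protein, and Il33 a cytokine held in the nucleus of barrier cells, the mouse type II cell among them, and released on damage. Muc1 is also made by airway epithelium, Il33 by stromal and endothelial cells, and Chil1 by macrophages and neutrophils.

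The promoters of the 4 genes with the clearest response to styrene, Il33, Muc1, Chil1 and Slc34a2, are given here. These genes moved together only in part in the same animals. After each group mean was taken out, their Pearson correlations ran from 0.30 (Il33 with Slc34a2) to 0.69 (Muc1 with Chil1). Sftpd, which is not among them, had 0.81 with Chil1. Each line gives the 250 bases before the start of a RefSeq transcript in build GRCm38.p6, on the plus strand, and capitals mark a match to one of 5 searched motifs.
Il33, chr19:29924863-29925112: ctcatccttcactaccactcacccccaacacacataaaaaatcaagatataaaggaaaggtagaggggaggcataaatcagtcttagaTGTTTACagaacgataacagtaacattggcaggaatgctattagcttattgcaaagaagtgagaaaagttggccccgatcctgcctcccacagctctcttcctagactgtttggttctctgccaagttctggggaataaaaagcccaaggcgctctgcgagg
Muc1, chr3:89228806-89229055: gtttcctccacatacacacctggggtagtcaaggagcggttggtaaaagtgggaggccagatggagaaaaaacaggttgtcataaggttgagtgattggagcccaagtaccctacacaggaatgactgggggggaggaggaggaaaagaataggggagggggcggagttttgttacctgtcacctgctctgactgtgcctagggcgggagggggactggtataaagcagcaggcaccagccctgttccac
Chil1, chr1:134181906-134182155: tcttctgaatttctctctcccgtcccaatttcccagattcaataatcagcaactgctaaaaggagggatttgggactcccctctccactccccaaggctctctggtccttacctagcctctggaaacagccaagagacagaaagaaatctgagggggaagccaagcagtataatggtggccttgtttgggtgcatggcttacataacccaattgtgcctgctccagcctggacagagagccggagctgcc
Slc34a2, chr5:53049103-53049352: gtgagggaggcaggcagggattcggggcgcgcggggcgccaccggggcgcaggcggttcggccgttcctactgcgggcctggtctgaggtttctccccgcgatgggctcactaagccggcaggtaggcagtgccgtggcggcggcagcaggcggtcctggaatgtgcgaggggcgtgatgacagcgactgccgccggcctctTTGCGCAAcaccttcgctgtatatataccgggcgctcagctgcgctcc

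The search covered both strands of 300 bases, from 250 before to 50 after the start, at 9 starts of 8 of the 10 genes and in 32851 mouse promoters. These are not the 8 genes measured: Sftpc and Sftpd had no promoter entry and were not searched, while Sftpb and Lamp3 were. Positions count from -1 at the base before the start. The Il33 line holds the forkhead motif TGTTTAC at -162, which occurs in 3.65% of all promoters and at 2 of the 9 starts, the other being that of Lamp3 at -92. A second Il33 start further downstream held no match. The Slc34a2 line holds TTGCGCAA, the C/EBP palindrome, at -48, found in 0.183% of all promoters. CTCAAG, the core bound by the lung factor NKX2-1, occurred at 3 of the 9 starts and in 15.9% of all promoters: at -100 and -15 before Sftpb, at -166 before Sftpa1, and on the opposite strand at position 21 after the Muc1 start, outside the bases shown. TGTTTGC lay on the opposite strand at -88 before Sftpb, against 5.07% of all promoters, and the E-box CACGTG at none of the 9, against 7.15%. None of these matches overlap. The 4 promoters shown share no searched motif, and their G and C content was 45.2% for Il33, 54.8% for Muc1, 51.6% for Chil1 and 69.6% for Slc34a2.

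The values are on the deposited log2 scale, on which the array medians lay between 4.42 and 4.86 and the highest single value was 14.01. Every value of all 8 genes lay well above those medians, the lowest being 8.72 for Il33. Sftpc averaged 13.83 and Sftpa1 13.35 over the 90 lungs, close to the top of the scale, and whether the scale is compressed there was not tested. The targeted gene, Cyp2f2, was lower in both strains that lack it but still well above the array medians. It averaged 11.92 and 11.84 in unexposed TG lungs after 1 and 4 weeks and 11.84 and 11.89 in unexposed KO lungs, against 13.26 and 13.27 in unexposed WT lungs. Whether its probe set lies in the deleted part is not known here, so it shows a difference in the direction of the labels and not an absence of the gene. By limma's array weights, 4 arrays had a weight under 0.25, among them animal 3 of the WT 120 ppm group at 1 week, with a weight of 0.135. In whole lung, fewer type II cells and less RNA per type II cell cannot be told apart. All p-values are from limma, fitted to the 18 group means over all 90 arrays with 72 residual degrees of freedom and Benjamini-Hochberg adjustment across all 17097 genes, and a gene passed at an adjusted p under 0.05.

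**Figure D1:**
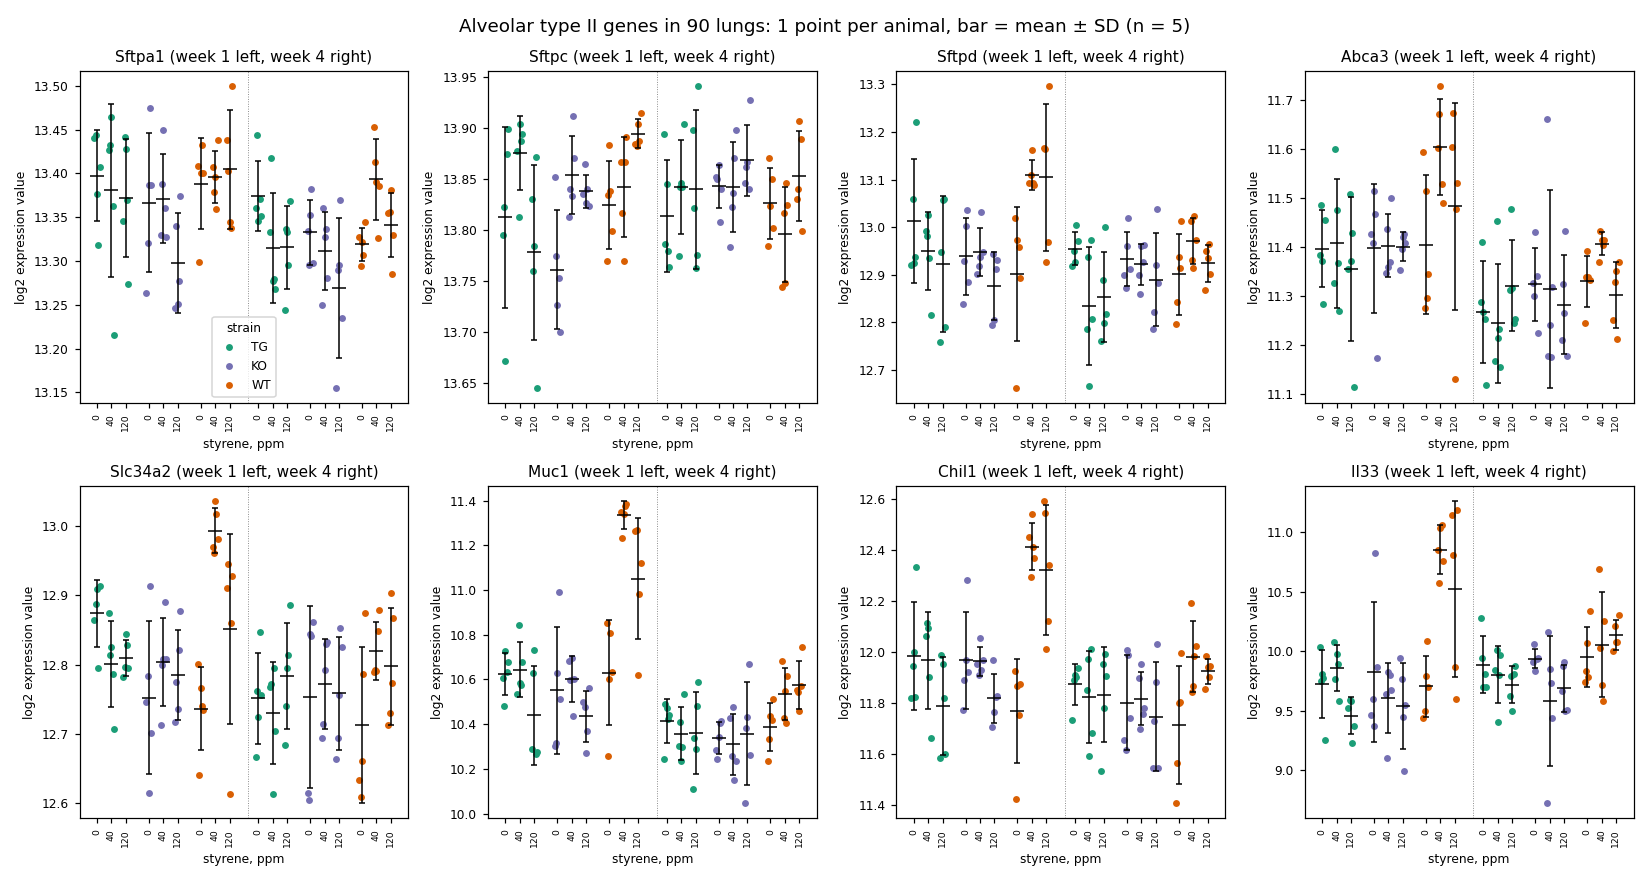
Level of each of the 8 genes in every lung. Points are single animals, placed by dose in ppm (0, 40, 120) within strain (TG, KO, WT), with week 1 left of the dotted line and week 4 right of it. The vertical axis is the deposited log2 value on a range of its own for each gene, and bars are the mean ± SD of 5 animals. The exposed WT lungs at week 1 stand highest for Il33, Muc1 and Chil1, while Sftpa1 and Sftpc span under 0.14 between their lowest and highest group means.

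Without styrene the strains did not differ detectably in these genes. None of the 8 passed for TG minus WT, KO minus WT or TG minus KO, where 0.287%, 0.275% and 0.135% of all genes passed, with 10 animals per strain. At an unadjusted p under 0.05 the counts were 2, 0 and 0. The changes lay between -0.07 and 0.19, and no bound of a 95% interval was larger than 0.374 in size. The 2 genes of the first comparison were Chil1, with 0.19 for TG minus WT (95% interval 0.04 to 0.34, adjusted p = 0.396), and Slc34a2, with 0.09 (0.01 to 0.17, adjusted p = 0.475).

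After 1 week of styrene, Il33, Muc1, Chil1 and Sftpd were higher in WT lungs at both concentrations, and Slc34a2 at 40 ppm. Il33 reached 2.22-fold the control level at 40 ppm, Muc1 1.63-fold and Chil1 1.56-fold, while Sftpd and Slc34a2 stayed under 1.2-fold. Sftpa1, Sftpc and Abca3 did not pass. Both concentrations were set against the same 5 controls. In all, 5 of the 8 genes rose at 40 ppm, where 4.67% of all genes passed and 3.82% passed as higher, and 4 of 8 rose at 120 ppm, where 6.79% passed and 3.94% passed as higher. The median change of the 8 genes was 0.23 at 40 ppm and 0.16 at 120 ppm, beside 0.03 and 0.00 for all genes. These 8 genes were chosen with earlier results of these data known, so the counts describe these lungs and do not test the set.

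Of the surfactant proteins, Sftpd had log2 values of 13.02, 12.66, 12.97, 12.96 and 12.89 in WT lungs at 0 ppm, 13.09, 13.11, 13.16, 13.09 and 13.09 at 40 ppm, and 13.17, 13.16, 12.93, 12.97 and 13.30 at 120 ppm. All 5 lungs at 40 ppm and 3 of the 5 at 120 ppm lay above every control, and 1 control, animal 2, lay far below the rest. The change was 0.21 (SE 0.06, adjusted p = 0.0328) at 40 ppm and 0.20 (SE 0.06, adjusted p = 0.0305) at 120 ppm, on average 1.15-fold at both. Without control animal 2 it was 0.15 at 40 ppm (adjusted p = 0.274) and 0.14 at 120 ppm (adjusted p = 0.245), and the call was also lost with 5 other animals left out singly at 40 ppm and 4 others at 120 ppm, so neither holds firmly. Animal 2 was also the lowest control for Sftpa1, Abca3, Slc34a2, Muc1 and Chil1, but not for Sftpc and Il33.

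Sftpa1 had 13.41, 13.30, 13.40, 13.43 and 13.40 at 0 ppm, 13.41, 13.38, 13.40, 13.36 and 13.44 at 40 ppm, and 13.44, 13.40, 13.34, 13.34 and 13.50 at 120 ppm. The 3 groups overlapped, with changes of 0.01 at 40 ppm (95% interval -0.08 to 0.09) and 0.02 at 120 ppm (-0.07 to 0.10). Sftpc, the most specific of these markers, had 13.77, 13.83, 13.88, 13.84 and 13.80 at 0 ppm, 13.87, 13.82, 13.77, 13.87 and 13.89 at 40 ppm, and 13.88, 13.88, 13.90, 13.89 and 13.91 at 120 ppm. At 120 ppm 4 of 5 lungs lay above every control, though by little, and the change of 0.07 (-0.01 to 0.15, adjusted p = 0.341) did not pass, nor did 0.02 (-0.06 to 0.10) at 40 ppm. A second, dimmer Sftpa1 probe set gave 0.10 at 40 ppm and 0.09 at 120 ppm, with adjusted p of 0.564 and 0.504 over 28898 probe sets.

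Abca3, the lipid transporter of the lamellar body, had 11.59, 11.27, 11.51, 11.30 and 11.35 at 0 ppm, 11.60, 11.67, 11.73, 11.53 and 11.49 at 40 ppm, and 11.60, 11.67, 11.13, 11.48 and 11.53 at 120 ppm. The groups overlapped, although 3 of 5 lungs at 40 ppm exceeded every control. Its change of 0.20 at 40 ppm (SE 0.08, adjusted p = 0.127) and 0.08 at 120 ppm (SE 0.08, adjusted p = 0.628) did not pass. The other Abca3 probe sets disagreed: a dimmer one gave 0.33 at 40 ppm (adjusted p = 0.0552) and 0.16 at 120 ppm, and the dimmest, with a mean of 6.20, gave -0.41 (adjusted p = 0.0134) and -0.42 (adjusted p = 0.00698). Abca3 therefore has no single direction on this array.

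Slc34a2 had 12.80, 12.64, 12.77, 12.74 and 12.74 at 0 ppm, 12.97, 12.96, 13.04, 13.02 and 12.98 at 40 ppm, and 12.91, 12.95, 12.61, 12.86 and 12.93 at 120 ppm. At 40 ppm all 5 lungs lay above every control. At 120 ppm 4 of 5 did, and animal 3, the array with the low weight, was below all controls. The change was 0.26 (SE 0.06, 1.19-fold, adjusted p = 0.00108) at 40 ppm and 0.11 (SE 0.06, adjusted p = 0.226) at 120 ppm. Leaving animal 3 out gave 0.17 at 120 ppm (adjusted p = 0.0281), which passes.

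Muc1, the membrane mucin, had 10.85, 10.26, 10.60, 10.81 and 10.64 at 0 ppm, 11.35, 11.23, 11.34, 11.38 and 11.38 at 40 ppm, and 11.26, 11.27, 10.62, 10.98 and 11.12 at 120 ppm. The lungs at 40 ppm were tightly grouped and clear of all controls, and those at 120 ppm were clear of them except for animal 3. The change was 0.71 (SE 0.10, adjusted p = 6.64e-07) at 40 ppm and 0.42 (SE 0.10, 1.34-fold, adjusted p = 0.00459) at 120 ppm. Without control animal 2 the change at 120 ppm was 0.33 (adjusted p = 0.0646).

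Chil1 had 11.92, 11.42, 11.87, 11.75 and 11.87 at 0 ppm, 12.45, 12.29, 12.54, 12.41 and 12.37 at 40 ppm, and 12.59, 12.54, 12.01, 12.12 and 12.34 at 120 ppm. It was the one gene of the 8 for which every exposed lung at both concentrations exceeded every control, as 5.66% of all genes did at 40 ppm and 1.33% at 120 ppm. The change was 0.64 (SE 0.11, adjusted p = 1.19e-05) at 40 ppm and 0.55 (SE 0.11, 1.47-fold, adjusted p = 2e-04) at 120 ppm.

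Il33 had 9.43, 9.50, 9.79, 10.08 and 9.70 at 0 ppm, 10.85, 10.57, 11.03, 11.06 and 10.75 at 40 ppm, and 11.15, 10.81, 9.87, 9.60 and 11.19 at 120 ppm. All lungs at 40 ppm were above all controls, while those at 120 ppm split into 3 that were as high as at 40 ppm and 2, animals 3 and 4, within the control range. The change was 1.15 (SE 0.21, adjusted p = 9.07e-05) at 40 ppm and 0.82 (SE 0.21, 1.76-fold, adjusted p = 0.00803) at 120 ppm. Without animal 1 or animal 5 of the 120 ppm group the second change was 0.66 (adjusted p = 0.0579) or 0.65 (adjusted p = 0.0822).

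Animals 3 and 4 at 120 ppm were the lowest of their group for all of the 8 genes but Sftpc, and for the mean of 15 proliferation genes, which was 7.14, 7.06, 5.47, 6.18 and 8.14 in the 5 animals in order, against 5.00 to 5.47 in the controls. When only the 10 arrays of this comparison were fitted, so that the spread came from these lungs alone, limma called none of the 8 genes at 120 ppm, and 24 genes as higher and 12 as lower among all. At 40 ppm the same restriction lost Sftpd (adjusted p = 0.149). The 40 ppm group was more even. Between the concentrations no gene of the 8 passed, beside 0% of all genes, with 120 minus 40 ppm at -0.29 for Muc1 (95% interval -0.49 to -0.08), -0.14 for Slc34a2 (-0.25 to -0.03) and -0.33 for Il33 (-0.76 to 0.09), and 2 of 8 at an unadjusted p under 0.05.

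**Figure D2:**
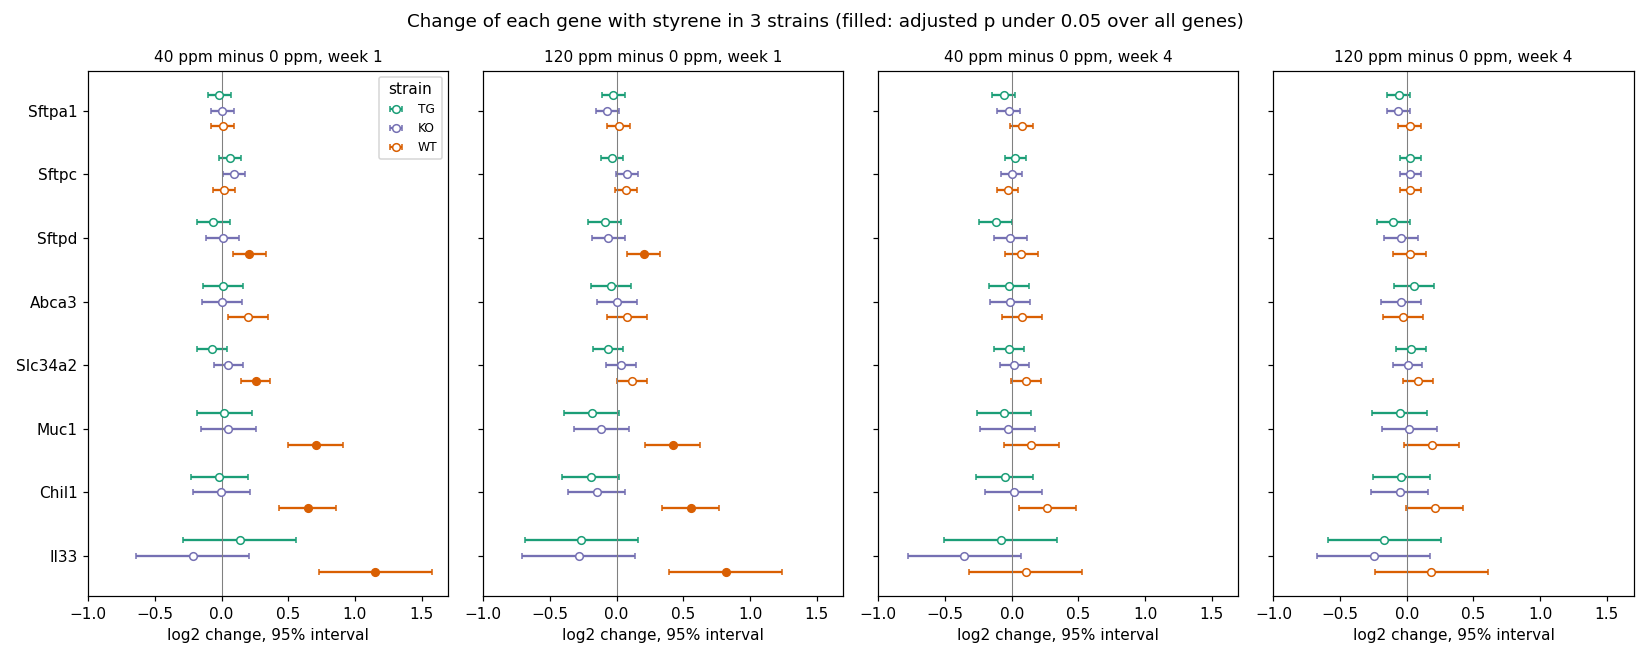
Change of each gene with exposure, as log2 exposed minus 0 ppm with its 95% interval, in TG, KO and WT lungs (top to bottom within each gene) for the 2 concentrations and 2 durations. Filled points passed at an adjusted p under 0.05 over all 17097 genes: 5 WT points at 40 ppm and 4 at 120 ppm, all at week 1.

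After 4 weeks none of the 8 genes passed in WT lungs, at 40 ppm or 120 ppm, where 0.152% and 0.439% of all genes did, and 1 and 0 had an unadjusted p under 0.05. Chil1 averaged 11.98 ± 0.14 at 40 ppm and 11.92 ± 0.05 at 120 ppm, against 11.71 ± 0.23 at 0 ppm (SD, n = 5 each), differences of 0.27 (95% interval 0.05 to 0.48) and 0.21 (-0.0032 to 0.42). Muc1 averaged 10.54 ± 0.12 at 40 ppm and 10.57 ± 0.11 at 120 ppm, against 10.39 ± 0.11 at 0 ppm, and 4 of the 5 lungs at 120 ppm exceeded every control. Il33 averaged 10.06 ± 0.44 at 40 ppm and 10.13 ± 0.12 at 120 ppm, against 9.95 ± 0.25 at 0 ppm, with 1 and 0 lungs above every control. The difference between the durations was tested directly, and no gene passed: the change at 4 weeks minus that at 1 week at 40 ppm was -1.05 for Il33 (SE 0.30, adjusted p = 0.102), -0.56 for Muc1 (SE 0.15, adjusted p = 0.0504) and -0.38 for Chil1 (SE 0.15, adjusted p = 0.534), with 3 of 8 genes at an unadjusted p under 0.05 and 0.532% of all genes passing. Leaving out single animals brought Muc1 under the threshold in 5 cases, the lowest being 0.0260 without WT control animal 1 of week 1, and Il33 in 1, at 0.0276 without animal 1 of the 40 ppm group at 4 weeks. The count of genes passing at 40 ppm was 1 or 2 under 6 of 9 other settings of the analysis, so this result depends on the setting. At 120 ppm it was -0.63 for Il33 (SE 0.30, adjusted p = 0.631), and again 3 of 8 had an unadjusted p under 0.05, with 0.883% of all genes passing. With both weeks averaged, 4 of 8 rose at 40 ppm (Il33, Muc1, Chil1 and Slc34a2, beside 3.82% of all genes passing and 3.05% as higher) and 3 of 8 at 120 ppm (Il33, Muc1 and Chil1, beside 5.78% and 3.67%). At 4 weeks, too, none of the 8 genes passed for 120 minus 40 ppm, with 0 of 8 at an unadjusted p under 0.05 and 0% of all genes passing.

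In TG and KO lungs no gene of the 8 passed at either concentration or duration. Of all genes, 0.0468% passed in TG lungs at 120 ppm and 1 week, 0.0117% in TG and 0.0234% in KO lungs at 120 ppm and 4 weeks, and 0% in the other 5 comparisons. Averaging the weeks gave no call either, beside 0% of all genes at 40 ppm in both strains and 0.275% in TG and 0.076% in KO lungs at 120 ppm. At an unadjusted p under 0.05 there was 1 of the 8 genes in TG lungs at each concentration, and in KO lungs 0 at 40 ppm and 1 at 120 ppm. Within the weeks, 1 gene, Sftpc in KO lungs at 40 ppm and 1 week (0.09, 95% interval 0.01 to 0.17), had an unadjusted p under 0.05. Il33 in TG lungs at 1 week averaged 9.72 ± 0.29 at 0 ppm, 9.86 ± 0.19 at 40 ppm and 9.46 ± 0.16 at 120 ppm, and in KO lungs 9.82 ± 0.59, 9.61 ± 0.30 and 9.54 ± 0.36 at the same doses. Muc1 averaged 10.62 ± 0.09, 10.64 ± 0.12 and 10.44 ± 0.22 in TG lungs and 10.55 ± 0.28, 10.60 ± 0.10 and 10.43 ± 0.11 in KO lungs. Chil1 averaged 11.98 ± 0.21, 11.97 ± 0.19 and 11.79 ± 0.19 in TG lungs and 11.97 ± 0.19, 11.96 ± 0.06 and 11.82 ± 0.10 in KO lungs. In neither strain did the 3 doses separate for any of these genes, and the point estimates at 120 ppm were below 0. For Il33 in KO lungs they rest largely on control animal 4, at 10.82 against 9.37 to 9.86 in the other 4 controls. Without it the change was -0.034 at 120 ppm and 0.035 at 40 ppm, in place of -0.28 and -0.22. The 95% intervals at 120 ppm and 1 week ran from -0.69 to 0.16 in TG and -0.71 to 0.14 in KO lungs for Il33, from -0.39 to 0.02 and -0.32 to 0.09 for Muc1, and from -0.41 to 0.02 and -0.36 to 0.07 for Chil1.

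The strains differed in the response itself at 1 week, as tested by the change in TG or KO lungs minus the change in WT lungs. For TG minus WT at 40 ppm, 3 of 8 genes passed, beside 1.53% of all genes in either direction and 1.39% as lower: Muc1 with -0.69 (SE 0.15, adjusted p = 0.00281), Chil1 with -0.66 (SE 0.15, adjusted p = 0.00635) and Slc34a2 with -0.33 (SE 0.08, adjusted p = 0.00967). Il33 had -1.02 (SE 0.30, adjusted p = 0.0627). For Slc34a2, TG lungs at 1 week averaged 12.87 at 0 ppm and 12.80 at 40 ppm, and unexposed WT lungs 12.74. Its difference for KO minus WT at 40 ppm did not pass. For TG minus WT at 120 ppm, 4 of 8 passed, beside 4.59% in either direction and 3.42% as lower: Chil1 with -0.75 (adjusted p = 0.000762), Muc1 with -0.61 (adjusted p = 0.00655), Il33 with -1.09 (adjusted p = 0.0213) and Sftpd with -0.29 (adjusted p = 0.0366). For KO minus WT, Il33, Muc1 and Chil1 passed at both concentrations, beside 1.25% of all genes at 40 ppm and 2.37% at 120 ppm, of which 1.05% and 1.76% as lower. Their differences were -1.37, -0.65 and -0.65 at 40 ppm (adjusted p of 0.00572, 0.00694 and 0.0106) and -1.10, -0.54 and -0.70 at 120 ppm (adjusted p of 0.0299, 0.0296 and 0.00278). These comparisons share the WT lungs. With only the arrays compared fitted, none passed at 120 ppm in either strain. For WT lungs at 120 ppm and 1 week, the same restriction also left far fewer calls over all genes. Whether the loss concerns the 8 genes more than others was not tested. Single animals also decided some of the strain differences that passed. Chil1 for KO minus WT at 40 ppm had an adjusted p of 0.0517 without WT control animal 2. At 120 ppm, of 20 animals left out in turn, 7 removed the call of Il33 and 8 that of Muc1 for KO minus WT, with adjusted p up to 0.116 and 0.127, and 4 removed that of Il33 and 9 that of Sftpd for TG minus WT, with adjusted p up to 0.0861 and 0.166. WT control animal 2 and WT animals 1, 2 and 5 at 120 ppm were among them for each of these 4 results. Chil1 at 120 ppm kept its call in both strains whichever animal was left out.

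At 4 weeks no difference from WT in the response passed, where 0.0117% of all genes at 40 ppm and 0.0292% at 120 ppm did for TG minus WT, and 0.0234% and 0.0175% for KO minus WT. At an unadjusted p under 0.05 there were 3 of the 8 genes for TG minus WT at 40 ppm and none in the other 3 comparisons. TG and KO lungs were not distinguished from each other: none of the 8 genes passed for the change in TG minus that in KO at any dose or duration, no gene of the 8 had an unadjusted p under 0.05, and 0% of all genes passed. The widest intervals were those of Il33, from -0.25 to 0.95 at 40 ppm and from -0.58 to 0.62 at 120 ppm after 1 week, so differences inside them could not be resolved. Muc1 ran from -0.32 to 0.26 and from -0.36 to 0.22 in the same comparisons, and Chil1 from -0.32 to 0.29 and from -0.35 to 0.25.

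By level, the order of the 18 groups put WT at 40 ppm and 1 week first for Sftpd, Abca3, Slc34a2, Muc1, Chil1 and Il33, and WT at 120 ppm and 1 week second for these genes apart from Slc34a2, where unexposed TG lungs at 1 week came second. For Muc1 the first and second group means, 11.34 and 11.05, and the third, 10.64 in TG lungs at 40 ppm and 1 week, were each more than 1 pooled SD of 0.163 apart. For Chil1 and Il33 the first and second did not differ by more than 1 pooled SD (0.170 and 0.343), and the second stood above the third by more. Below these, neighbouring groups lay within 1 pooled SD for all 3 genes down to the lowest. Of the 10 exposed WT lungs at 1 week, 8 for Muc1, 7 for Chil1, 7 for Slc34a2 and 5 for Il33 lay above all 60 TG and KO lungs, and 3 did for Abca3, 1 each for Sftpa1 and Sftpd and none for Sftpc. Of all genes, 1.09% had at least 8 such lungs, 1.66% at least 7 and 2.99% at least 5. Sftpa1 and Sftpc varied least, with group means between 13.27 and 13.41 and between 13.76 and 13.89.

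Between the unexposed lungs of the 2 durations, 1 of the 8 genes passed, and duration cannot be told apart from anything else that differed between these lungs. Over the 3 strains averaged, Muc1 was lower at 4 weeks than at 1 week (log2 change -0.22, SE 0.06, adjusted p = 0.00627), beside 17.2% of all genes that passed and 5.96% that passed as lower. Within strains the same change was -0.21 in TG, -0.21 in KO and -0.24 in WT lungs, where none of the 8 genes passed, beside 0.304%, 0.538% and 0.638% of all genes, and 2, 2 and 1 had an unadjusted p under 0.05.

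Other genes counted to the type II cell were followed in WT lungs at 1 week through lists. Whole lung does not show which cells a change in these genes comes from, and this was not tested. Of all genes, 3.82% rose and 0.854% fell at 40 ppm, and 3.94% rose and 2.85% fell at 120 ppm. Lists with 1 gene passing do not stand clearly above these shares. Of 16 further type II markers, 3 rose at 40 ppm and 3 at 120 ppm, with medians of 0.16 and 0.11: the calcium-binding S100g (0.57 and 0.46), lysozyme Lyz2 (0.17 and 0.16), the fatty acid binding Fabp5 at 40 ppm (0.48) and cathepsin H, Ctsh, at 120 ppm (0.35). Of 21 genes of lipid synthesis for surfactant, 6 rose at 40 ppm and 3 rose and 1 fell at 120 ppm, with medians of 0.20 and 0.05. Elovl1, a fatty acid elongase, rose by 0.75 and 0.58, and Fasn, fatty acid synthase, by 0.68 and 0.41. Gpd1, which makes glycerol phosphate, rose by 0.62 at 40 ppm. Gpam, which begins glycerolipid synthesis, rose by 0.45 at 40 ppm and Scd1, a desaturase, by 0.26 at 120 ppm, while the choline kinase Chka changed by -0.32 at 120 ppm. Of 18 genes of surfactant processing and clearance, 3 rose at 40 ppm, and 2 rose and 1 fell at 120 ppm. They included Csf2, which drives surfactant clearance by macrophages (0.59 and 0.78), Hps1 (0.48) and Pepd (0.35) at 40 ppm, and at 120 ppm Adgrf5, a receptor that restrains the surfactant pool, with -0.36. Of 17 transcription factors and signals of the type II cell, 1 passed at 40 ppm, Etv5 with 0.49, and none passed at 120 ppm, with 6 at an unadjusted p under 0.05.

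Genes of the passage from type II to type I cells changed in both directions. Of 12 measured, 1 rose and 1 fell at 40 ppm, and 4 rose and 1 fell at 120 ppm. For these and the lists that follow, the shares of all genes are those given above. Cldn4, a claudin, rose by 0.72 and 0.78, and at 120 ppm the keratins Krt19 and Krt18 rose by 0.49 and 0.44. Cdkn1a, a cell cycle inhibitor also counted in this list, changed by -0.88 and -0.95. Of 13 type I markers, none passed at 40 ppm, with 4 at an unadjusted p under 0.05, and 1 fell at 120 ppm, Hopx with -0.11. For the receptor and downstream genes of Il33, 1 of 19 rose at each concentration, Retnla, a secreted product of alternatively activated macrophages and airway epithelium, by 2.12 and 2.19. Of 6 other chitinase-like and chitinase genes none passed, with 3 at an unadjusted p under 0.05 at each concentration, and Chia1 and Chil4 had 0.62 and 0.59 at 40 ppm (adjusted p of 0.105 and 0.0919). Of 12 mucous cell genes, 2 rose at each concentration, Agr2 by 2.81 and 2.39 and the membrane mucin Muc4 by 1.38 and 1.32. Of 6 other genes of phosphate and calcium handling none passed, with 0 at an unadjusted p under 0.05. These lists were chosen with earlier results of these data known, and their counts describe these lungs.

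**Figure D3:**
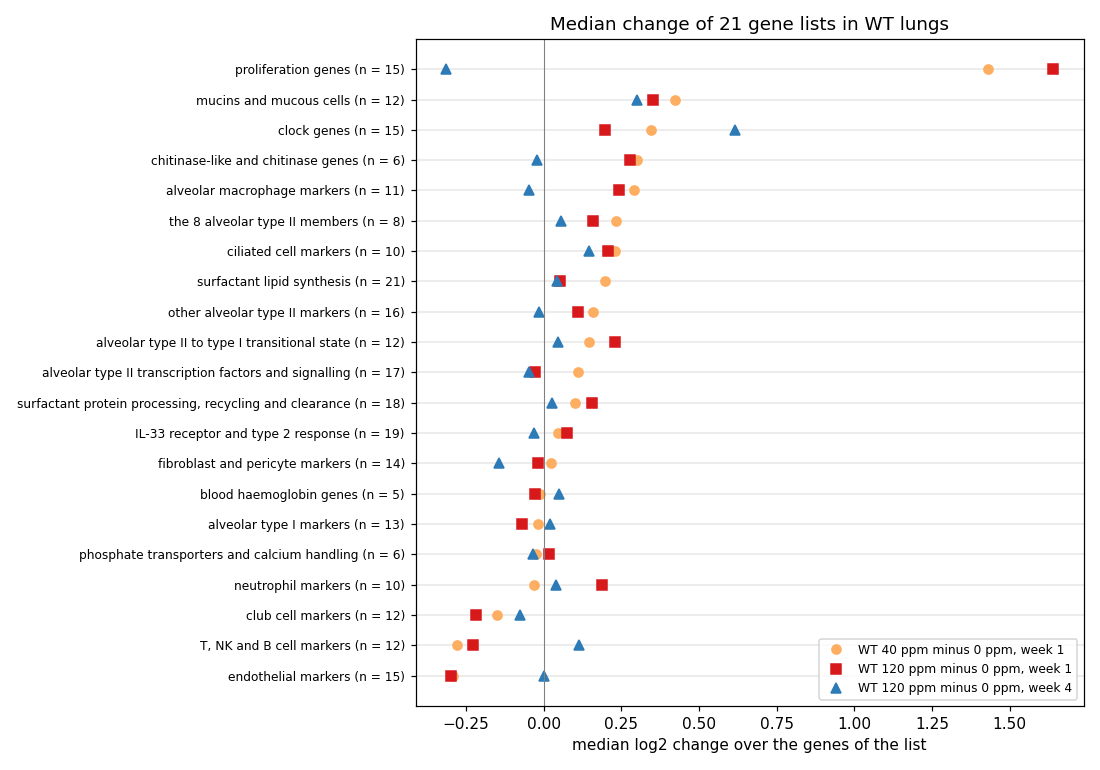
Median log2 change of 21 gene lists in WT lungs, with the number of measured genes in brackets, at 40 ppm and 120 ppm after 1 week and at 120 ppm after 4 weeks. The 8 measured type II genes have medians of 0.23, 0.16 and 0.06. The proliferation genes stand furthest right at 1 week, at 1.43 and 1.64, and furthest left at 4 weeks, at -0.32.

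Markers of other cells moved in the same WT lungs at 1 week, where 3.82% of all genes rose and 0.854% fell at 40 ppm, and 3.94% rose and 2.85% fell at 120 ppm. Of 15 proliferation genes, 13 rose at 40 ppm and 14 at 120 ppm, and their mean lay between 6.47 and 6.99 at 40 ppm and between 5.47 and 8.14 at 120 ppm, against 5.00 to 5.47 at 0 ppm. Of 15 endothelial markers, 2 fell at 40 ppm and 5 at 120 ppm, with medians of -0.29 and -0.30, and their mean ranged from 10.21 to 10.35 at 40 ppm and from 10.01 to 10.40 at 120 ppm, against 10.44 to 10.71. Of 12 club cell markers 1 and 3 fell, Cyp2f2 among them, with means from 11.22 to 11.79 at 40 ppm and from 10.83 to 12.00 at 120 ppm, against 11.42 to 12.01. Of 11 alveolar macrophage markers 1 and 3 rose (Ctsk by 1.25 and 1.26, Marco by 0.98 at 120 ppm), with means from 8.67 to 9.06 and from 8.66 to 9.26, against 8.31 to 8.90. The other macrophage markers did not pass, and at 40 ppm not all of these were higher. Of 14 fibroblast and pericyte markers 2 rose and 1 fell at 40 ppm, and 3 rose and 2 fell at 120 ppm. Of 10 neutrophil markers 1 rose at each, Mmp8, and none of 10 ciliated, 12 lymphoid or 5 haemoglobin genes passed, with 4, 1 and 1 at an unadjusted p under 0.05 at 40 ppm and 1, 3 and 0 at 120 ppm. The part of these cell types in the changes of Il33, Muc1 and Chil1, which some of them also make, was not tested.

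Clock genes passed also in groups where no type II gene did. Of 15, 5 rose and 3 fell at 40 ppm and 7 rose and 4 fell at 120 ppm in WT lungs at 1 week. At 4 weeks 3 rose and 3 fell at 40 ppm and 6 rose and 3 fell at 120 ppm. Of all genes, 4.67% passed at 40 ppm and 6.79% at 120 ppm after 1 week, and 0.152% and 0.439% after 4 weeks. Dbp, a clock-controlled transcription factor, averaged 9.07 at 120 ppm and 4 weeks, against 5.74 in its controls, in lungs where none of the 8 type II genes passed. In TG lungs at 120 ppm and 1 week Dbp averaged 8.49, against 6.51 at 0 ppm, and passed (adjusted p = 0.0435), while none of the 8 did. In KO lungs at 120 ppm and 1 week it averaged 7.96, against 6.32, with overlapping groups, and did not pass (adjusted p = 0.29). At 120 ppm and 4 weeks Dbp passed in both strains, where none of the 8 did. It averaged 8.20 in KO lungs, against 5.76 at 0 ppm (adjusted p = 0.00188), and 7.93 in TG lungs, against 5.80 (adjusted p = 0.0361).

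Among themselves, the genes other than Sftpc were mostly correlated positively, to differing degrees. Over the 90 animals, after each group mean was taken out, the 21 pairs without Sftpc had Pearson correlations from -0.02 to 0.81 with a median of 0.46, highest for Sftpd with Chil1 (0.81) and Muc1 with Chil1 (0.69), and lowest for Abca3 with Il33 (-0.02). Over the 18 group means they ran from 0.44 to 0.93 with a median of 0.80, highest for Muc1 with Chil1. The 7 pairs with Sftpc lay between -0.23 and 0.07 within groups and between -0.20 and 0.30 over group means. All values of an animal come from 1 array, so they share its RNA and its quality, and these correlations are given as a description.

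**Figure D4:**
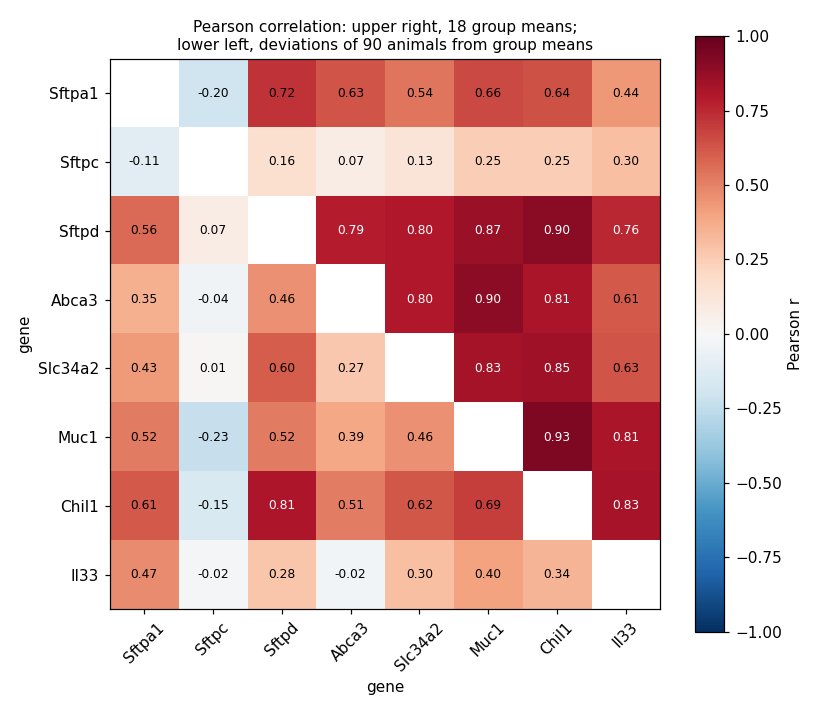
Pearson correlation between the 8 genes. Cells to the upper right are over the 18 group means and cells to the lower left over the deviations of the 90 animals from their group means. The row and column of Sftpc stay between -0.23 and 0.30, and Chil1 has the strongest links, 0.93 with Muc1 and 0.81 with Sftpd.

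Among 10250 genes of at least moderate brightness outside the set, the pattern over the 18 group means most like that of Il33 belonged to Clip4 (r = 0.97), Gclc (0.95), the catalytic subunit of the enzyme that limits glutathione synthesis, and Baiap2l1 (0.94). For Chil1 they were Lcn2 (0.98), an iron-scavenging lipocalin, Lrg1 (0.97) and Aldoc (0.95), and for Muc1 Tgoln1 (0.96), Tmem116 (0.96) and the lysosomal protease Ctsd (0.96). Sftpd was closest to Nectin2 (0.93), the chemokine Ccl6 (0.93) and Ctsb (0.91), Abca3 to Acot7 (0.92), Hexa (0.92) and Mrpl57 (0.91), and Slc34a2 to Itih4 (0.92), Kalrn (0.91) and Mid1ip1 (0.88). Sftpa1 was closest to Tgfb3 (0.83), Sat1 (0.82) and Sec11c (0.81), and Sftpc to Rrp1 (0.88), Tmsb4x (0.87) and Hdac1 (0.86). These are the highest of 10250 correlations over 18 means each. Within groups the same pairs had lower values, from 0.18 for Slc34a2 with Kalrn to 0.74 for Abca3 with Acot7. The mean of the proliferation genes followed Il33, Chil1, Muc1 and Sftpd with correlations of 0.86, 0.86, 0.86 and 0.83 over the 18 group means, and of 0.42, 0.27, 0.31 and 0.46 over the 90 animals within groups. Over the same group means Abca3, Slc34a2, Sftpa1 and Sftpc had 0.72, 0.66, 0.45 and 0.41. The proliferation genes and the genes that responded rose in the same exposed WT groups at 1 week, so the correlations over group means in part restate that response. Within groups Abca3, Slc34a2, Sftpa1 and Sftpc had 0.30, 0.29, 0.27 and 0.08, so there only Sftpc lay clearly below Chil1 and Muc1.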

How the data were processed

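Whole-lung RNA of 90 mice was hybridised to 1-colour Affymetrix arrays, 1 array per animal. The authors deposited 1 table of normalized log2 values for 45141 probe sets. RMA (background correction, quantile normalization and probe summary) and Partek are named per the submitters' processing notes, with versions not given in the sources used here. RMA's quantile step draws the arrays towards 1 distribution, which can hide a shift shared by most genes, and the medians of the deposited arrays still ran from 4.42 to 4.86. Scanner signals and detection calls were not used here, and the number of animals limits the precision.

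The platform annotation lists 29449 probe sets, 28898 with 1 symbol and 551 with several. Probe sets with several symbols were left out, and the brightest probe set stood for each of 17097 genes. No column lacked a sample (0), and no 2 arrays held identical values (0 pairs). The 18 group means were fitted with limma 3.58.1 in R 4.3.3 on all arrays, with empirical Bayes moderation, and 41 comparisons were taken, each adjusted by Benjamini-Hochberg over all genes. The labels call the 5 animals of a group biological replicates. Python 3.11.15, pandas 2.3.3, numpy 2.4.6 and matplotlib 3.10.9 were used for the rest. The fit was tested on simulated data with known changes.

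The genes named are the 8 measured type II genes throughout. From each other list, up to 4 genes that passed are named by size of change, or up to 3 by size where none passed. For each type II gene, the 3 most correlated genes with a mean at or above the 40th percentile are named, and Cyp2f2, Scgb1a1, Mki67 and Dbp could be named anywhere. The type II genes and all lists were chosen with earlier results of these data known. As alternatives, the deposited values were quantile-normalized a second time, dim genes were dropped, probe sets of a gene were summarised by their median, the fit was limited to the groups compared, moderation was made robust with an intensity trend, arrays were weighted or those with a weight under 0.25 dropped, the average poly-A control signal entered as a covariate, replicate number entered as a block, and animals were omitted singly. Promoter sequences are RefSeq's on GRCm38.p6, and motifs were matched exactly.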

Additional observations from a re-analysis of the deposited data

Results flagged for a closer look

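The change with exposure differed between strains at 1 week for 5 genes, by the test of the difference itself. For Muc1 the change in TG minus that in WT lungs was -0.69 at 40 ppm and -0.61 at 120 ppm, and the change in KO minus that in WT was -0.65 and -0.54. For Chil1 the same values were -0.66 and -0.75 for TG minus WT and -0.65 and -0.70 for KO minus WT. For Il33 they were -1.09 for TG minus WT at 120 ppm, and -1.37 at 40 ppm and -1.10 at 120 ppm for KO minus WT. Slc34a2 had -0.33 for TG minus WT at 40 ppm and Sftpd -0.29 for TG minus WT at 120 ppm.

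In 144 sets of 5 animals (8 genes in 18 groups), 8 held a lone animal whose gap to the nearest other, divided by the range of the group, exceeded Dixon's critical value of 0.71, a rule that chance meets in about 1 in 20 sets. Lowest of their group were Sftpa1 in unexposed WT animal 2 at 1 week, with 13.30, Muc1 in WT animal 2 at 40 ppm and 1 week, with 11.23, and Slc34a2 in WT animal 3 at 120 ppm and 1 week, with 12.61. Il33 in KO animal 2 at 40 ppm and 1 week was also lowest, with 9.10, as were Muc1 and Chil1 in unexposed TG animal 1 at 4 weeks, with 10.24 and 11.73. Highest of their group were Sftpa1 in unexposed TG animal 2 at 4 weeks, with 13.44, and Abca3 in TG animal 2 at 40 ppm and 4 weeks, with 11.45.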

How the results depend on the processing

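No value that passed changed direction under any alternative run. Among 8232 values under alternatives, 435 changed sign where neither value passed, the largest of size 0.23. The rises of Il33, Muc1, Chil1 and Slc34a2 at 40 ppm and 1 week in WT lungs passed under all 9 settings and with any 1 animal left out. Fitting only the arrays compared gave 0 genes of the 8 in WT lungs at 120 ppm and 1 week (4 otherwise), 0 for TG minus WT (4 otherwise) and 0 for KO minus WT (3 otherwise) in the change there, and 1 at 120 ppm with the weeks averaged (3 otherwise). That average gave 5 with array weights and 5 with low-weight arrays left out. The change at 4 weeks minus that at 1 week in WT lungs at 40 ppm, with 0, gave 2 with array weights, with low-weight arrays left out or with only the arrays compared, and 1 with the robust trend, the median over probe sets or the poly-A covariate. For unexposed lungs at 4 weeks minus 1 week, 1 became 2 with the median over probe sets or the poly-A covariate in all strains, and 0 became 2 in KO with the poly-A covariate. The cause was not tested. Counts over all genes also moved with the setting, as given below for 2 comparisons, and are not set beside each count here. With single animals left out, the counts ran from 2 to 5 in WT at 120 ppm and 1 week, from 2 to 5 for TG minus WT and 1 to 4 for KO minus WT there, from 2 to 5 with the weeks averaged, and from 0 to 2 for the difference between durations at 40 ppm.

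Over all genes, 674 rose and 487 fell in WT lungs at 120 ppm and 1 week, against 24 and 12 with only the arrays compared, 2003 and 797 with low-weight arrays left out, 1057 and 476 with array weights, 1010 and 382 with quantile normalization again, 1493 and 1306 with the poly-A covariate, and 507 and 548 with dim genes left out. At 40 ppm, 653 rose and 146 fell, against 1717 and 729 with array weights and 1091 and 294 with low-weight arrays left out.

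With the replicate block, the fall of Muc1 in unexposed lungs was -0.15 (adjusted p = 0.323 by limma), leaving 0 genes, and Sftpd at 40 ppm with the weeks averaged passed, with 0.14 (adjusted p = 0.0478). The numbers were not taken to pair animals: same-numbered animals of a week had a mean correlation of 0.08, against -0.02 for others, 178 of 360 pairs were over 0.1, and 42 of 90 animals were closest to their own number.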
